A study of Homo sapiens with 4 samples.

Results

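The genes of the mitochondrial respiratory chain and ATP synthase were taken by name from tables of gene expression in the human line MDA-MB-231, which came from breast cancer of the triple-negative kind. The names that begin MT-ND, MT-CO, MT-ATP or MT-CYB, the numbered NDUFA, NDUFB, NDUFC, NDUFS and NDUFV genes, the 4 SDH genes, and the names that begin UQCR, COX4 to COX8 or ATP5 gave 102 of 20137 genes. Of these, 13 lie in mitochondrial DNA (mtDNA) and 89 in the nucleus. In all, 94 were counted as subunits or their tissue forms, while 8 are readthrough genes, pseudogenes, assembly or accessory factors, or a paralog not counted as a subunit (ATP5L2). RNA was sequenced from cells with a knockdown of AURKA, the mitotic kinase Aurora A (2 libraries, shA in the titles), and from control cells (2 libraries, shC), all grown in L-15 medium with serum. The series text calls the controls mock-transfected, while their titles have the same sh prefix. Hairpin sequences and their number are not stated in any source at hand. The series text names the 2 libraries of each group biological replicates, and nothing says that they came from separate days, so p-values measure the spread between these samples only.

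The respiratory chain passes electrons from NADH and succinate to oxygen and pumps protons across the inner mitochondrial membrane, and ATP synthase (complex V) uses the return of these protons to make ATP. Complex I oxidises NADH, complex II (succinate dehydrogenase) oxidises succinate, complex III passes electrons from ubiquinol to cytochrome c, and complex IV reduces oxygen. Complexes I, III, IV and V are built from subunits of both genomes, complex II from nuclear subunits alone. The mitochondrial genome is transcribed as long RNAs from both strands that are cut into single mRNAs, mostly at transfer RNAs, whereas each nuclear subunit has a promoter of its own. A pool of Aurora A has been described in mitochondria, where it bears on their shape and on respiration in cancer cells.

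Values were taken as FPKM (fragments per kilobase of a transcript, scaled by depth), added up over the transcripts of a gene. AURKA had 22.3 and 23.7 FPKM in the knockdown, against 124 and 99.1 FPKM in the controls. This is a mean 4.86-fold lower (log2 difference -2.22, standard error 0.15; limma, adjusted p 0.0819, or 0.000696 with the run as a term). Depth estimated from the value of a single fragment in long genes was roughly 17300000 to 27600000 fragments per library. The mesenchymal markers VIM, CD44, AXL and PLAU lay between 102 and 2068 FPKM. Those of luminal and epithelial cells (ESR1, PGR, ERBB2, CDH1, EPCAM and GATA3) lay between 0.00812 and 20.2 FPKM. PTPRC, CD3E, DCN and COL1A1 were at 3.61 FPKM or less. The 2 tables of a replicate number share their row order and their loci, while 1707 transcripts carry another locus in the other number. Each number, with 1 library of each group, was therefore taken as a quantification run of its own, though the titles do not name a run. The run stands for the replicate number throughout. Replicate number and run cannot be told apart, and differences are therefore given within each replicate number beside the pooled ones. In bulk RNA, a different make-up of the culture and a different amount of RNA per cell cannot be told apart either.

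Several mtDNA-encoded mRNAs overlap, and the stretches where they meet are shown because they bear on the levels that follow. Sequences are of GENCODE 29 transcripts on the plus strand of chromosome M (GRCh38), 5′ to 3′, and the capitals mark the start codon of the second gene.
MT-ATP8 into MT-ATP6, chrM:8515-8544: ctgagaaccaaaATGaacgaaaatctgttc
MT-ATP6 into MT-CO3, chrM:9195-9224: cgacaacacataATGacccaccaatcacat
MT-ND4L into MT-ND4, chrM:10748-10777: aaacctactccaATGctaaaactaatcgtc
The coding sequence of MT-ATP6 starts 46 bases before that of MT-ATP8 ends, MT-CO3 shares 1 base with MT-ATP6, and MT-ND4 shares 7 bases with MT-ND4L. The tables accordingly give MT-ATP8, MT-ATP6 and MT-CO3 a single locus (chromosome MT, 8366 to 9990) and MT-ND4L and MT-ND4 another (10470 to 12137), and how fragments in the overlaps were shared out is not stated in any source at hand.

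The mtDNA-encoded mRNAs were by far the most abundant of the family, from a mean of 2246 FPKM (MT-ND6) to 50561 FPKM (MT-ATP8) over the 4 libraries, with a median of 7109.7 FPKM. Together they took 18.98% and 17.04% of all FPKM in the knockdown, against 16.03% and 17.6% in the controls. MT-ATP8, a small subunit of the membrane part of ATP synthase, made up 41.5% and 37.8% of that sum in the knockdown and 39.03% and 38.8% in the controls. Its mRNA is shared with MT-ATP6, yet its FPKM was 6.32 and 5.65 times that of MT-ATP6 in the knockdown, and 7.24 and 6.61 times in the controls. MT-ATP8 is annotated with 207 bases and MT-ATP6 with 681, and the level of the shorter gene is uncertain. Similarly, MT-ND4L (297 bases) stood at 1.47 and 1.30 times MT-ND4 (1378 bases) in the knockdown and 1.41 and 1.36 times in the controls.

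Summed over the 13 genes, mtDNA-encoded mRNA was higher in the knockdown in replicate 1 and lower in replicate 2. The sums were 141907 and 122477 in the knockdown, against 115510.0 and 133815 in the controls (132192 ± 13739.6 FPKM in the knockdown and 124663 ± 12944 FPKM in the controls, SD, n = 2 each). The log2 difference was 0.30 in replicate 1 and -0.13 in replicate 2, and the groups overlap (two-sided exact permutation test, p = 0.667, where 4 libraries allow no p below 0.333). The lowest sum was that of control replicate 1 and the highest that of knockdown replicate 1, and the pooled difference of 0.08 became -0.02 without either of them. In limma on log2(FPKM + 1), 0 of the 13 genes passed a Benjamini-Hochberg adjusted p of 0.05 without or with the run as a term, nor an unadjusted p of 0.05 in either fit. Their smallest adjusted p was 0.854 without and 0.343 with it. Of all 12136 genes tested, 0% passed without and 3.44% with the run. The groups did not overlap in 5 of the 13, a share of 38.5%, against 35.9% of all genes tested.

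The single genes differed in direction. MT-CO1, the catalytic core of complex IV, had 7076 and 5940.3 FPKM in the knockdown, against 8196 and 7226 FPKM in the controls. Both knockdown libraries lay below both controls, with differences of -0.21 in replicate 1 and -0.28 in replicate 2 on the log2 scale (log2 difference -0.25, standard error 0.19; limma, adjusted p 0.884, or 0.402 with the run as a term). MT-CO3, another core subunit of the same complex, had 15363 and 13680.0 FPKM in the knockdown, against 9642 and 13810.1 FPKM in the controls. It was lowest in control replicate 1, and the other control lay above knockdown replicate 2 (0.67 in replicate 1 and -0.01 in replicate 2; adjusted p 0.879, or 0.446 with the run as a term). MT-CO2, which takes up electrons from cytochrome c, overlapped between the groups (8621 and 7462 FPKM in KD libraries against 6789 and 8176 FPKM in control libraries).

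MT-CYB, the cytochrome b of complex III, had 3346 and 3259 FPKM in the knockdown, against 2341 and 3190.1 FPKM in the controls. MT-ATP6, which lines the proton path of ATP synthase, had 9317 and 8194 FPKM in the knockdown, against 6223 and 7865 FPKM in the controls. In both genes the 2 knockdown libraries lay above the 2 controls, with little difference in replicate 2. For MT-CYB the difference was 0.51 in replicate 1 and 0.03 in replicate 2 (limma, adjusted p 0.867, or 0.343 with the run as a term). For MT-ATP6 it was 0.58 in replicate 1 and 0.06 in replicate 2 (adjusted p 0.854, or 0.37 with the run as a term). The membrane-arm subunits of complex I were split. MT-ND1, where the quinone site lies, was above the controls in both knockdown libraries (4971 and 5669.9 FPKM in KD libraries against 4195 and 4930.1 FPKM in control libraries; 0.24 in replicate 1 and 0.20 in replicate 2; limma, adjusted p 0.892, or 0.398 with the run as a term). MT-ND4, a proton-pumping subunit, was below them (7563 and 6829.9 FPKM in KD libraries against 7689 and 8167 FPKM in control libraries; -0.02 in replicate 1 and -0.26 in replicate 2). MT-ND2, another pumping subunit, had 5571 and 5654 FPKM in KD libraries against 5567 and 5728 FPKM in control libraries, the smallest difference of the 13. MT-ND5 (2047 and 2501 FPKM in KD libraries against 2221 and 2746 FPKM in control libraries) and MT-ND6 (1789 and 2411 FPKM in KD libraries against 2066 and 2717 FPKM in control libraries) were lower within each replicate number, with overlapping groups. MT-ND6 is the only mRNA of the 13 read from the other strand. MT-ND3 (6229 and 5697 FPKM in KD libraries against 4644 and 6128 FPKM in control libraries), MT-ND4L (11120.4 and 8891 FPKM in KD libraries against 10858 and 11146 FPKM in control libraries) and MT-ATP8 (58894 and 46287 FPKM in KD libraries against 45079 and 51984 FPKM in control libraries) were higher in replicate 1 and lower in replicate 2.

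**Figure D1:**
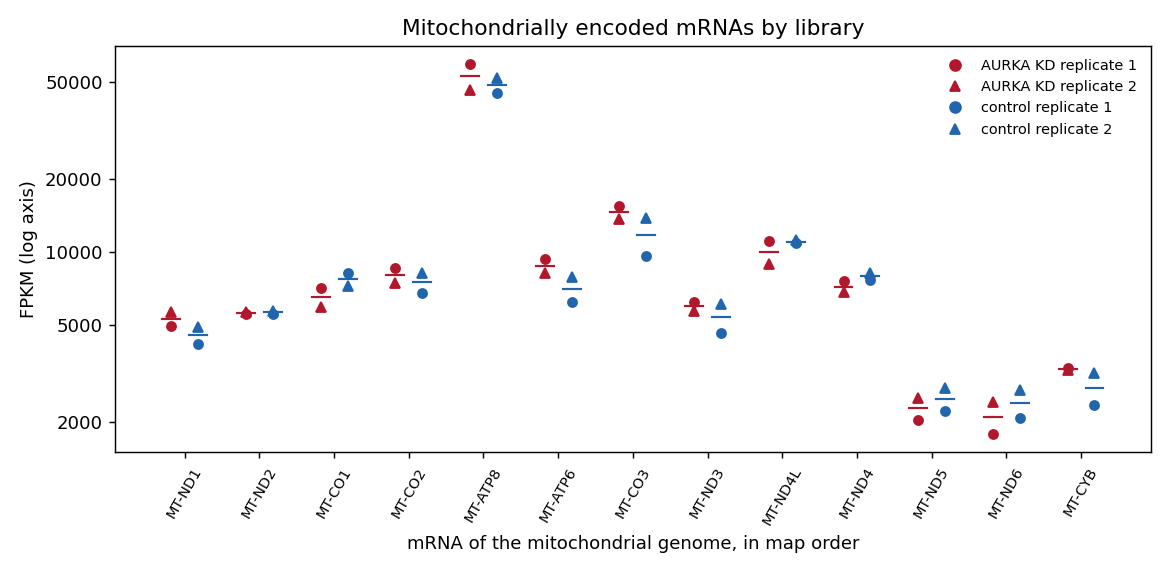
FPKM (log axis) of the 13 mtDNA-encoded mRNAs in map order, AURKA knockdown (red) left of control (blue), circles for replicate 1 and triangles for replicate 2, with bars at the group means. MT-ATP8 stands highest at 45079 to 58894 FPKM, control replicate 1 is the lowest library for MT-CO3, MT-ATP6 and MT-CYB, and MT-CO1 is lower in both knockdown libraries.

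Set against the mean log2 FPKM of the 13 genes in the same library, which takes out library scaling, 9 of the 13 genes had a shift of the same sign in both replicate numbers. That share is near the 67% of all tested genes whose difference, without such centring, had 1 sign in both. Relative to that mean, MT-CO1 was lower, at -0.42 in replicate 1 and -0.18 in replicate 2, MT-ND4 at -0.23 and -0.16, MT-ND4L at -0.17 and -0.22, MT-ND5 at -0.32 and -0.03 and MT-ND6 at -0.41 and -0.07 (log2, knockdown minus control). Of the other complex I genes, MT-ND2 (-0.20 and 0.08) and MT-ND3 (0.22 and -0.004) turned sign. Relatively higher were MT-ATP6 (0.38 and 0.16), MT-CO3 (0.47 and 0.09), MT-CYB (0.31 and 0.13) and MT-ND1 (0.04 and 0.30). Across the 13 genes, which are not independent of each other, the shift in replicate 1 went with that in replicate 2 at Pearson's r = 0.563 and Spearman's rho = 0.665, and at 0.607 and 0.764 over 11 genes without MT-ATP8 and MT-ND4L. For the differences without centring, r and rho were 0.481 and 0.469 over all tested genes and 0.204 and 0.465 over the 81 nuclear members tested. The 81 include NDUFC2-KCTD14, a readthrough gene of low level at -0.68 in replicate 1 and 0.50 in replicate 2, and r without it was not tested. The 2 shifts share no library. The genes with the most positive and the most negative shift, MT-CO3 and MT-CO1, were picked for it, so their ratio is a description only. It was 2.17 and 2.30 in the knockdown, against 1.18 and 1.91 in the controls, and control replicate 1 lay far below the other control.

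Nuclear-encoded members were expressed at lower levels per gene, with a median of 84.3 FPKM over the 89 and a highest value for ATP5J2, a subunit of the membrane part of ATP synthase (1006 and 862 FPKM in KD libraries against 856 and 899 FPKM in control libraries). Of the 89, 81 passed the filter of at least 1 FPKM in at least 2 libraries. The other 8 were COX4I2, COX6A2, COX8C and ATP5EP2, listed at 0 in every library, and COX6A1P2, ATP5L2, COX6B2 and COX7A1, whose highest value was 0.742 FPKM. Just inside the filter stood NDUFA4L2 at 1.05 and 1.03 FPKM in KD libraries against 0.987 and 0.408 FPKM in control libraries. Just outside it stood COX7A1 at 0.605 and 0.647 FPKM in KD libraries against 0.742 and 0.446 FPKM in control libraries. Summed over all 89 genes, nuclear-encoded mRNA was 13645 and 12652 in the knockdown, against 13113 and 13603 in the controls (13149 ± 702 FPKM in the knockdown and 13358 ± 346 FPKM in the controls, SD, n = 2 each), a log2 difference of 0.06 in replicate 1 and -0.10 in replicate 2 with overlapping groups (exact permutation test, two-sided p = 1). The sign of the pooled difference, -0.02, turned to 0.01 when libraries were scaled to an equal total without the genes of the mitochondrial genome, and to 0.03 without knockdown replicate 2.

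As a group the nuclear members stayed within narrow bounds. Their median log2 difference was -0.02, beside 0.01 over all 12136 genes tested, and 36 had a log2 difference above 0 and 45 below. None of the 94 tested members of either genome reached a difference of 0.5 on the log2 scale, which 5.9% of all tested genes did, and the members' differences ran from -0.39 (UQCRFS1) to 0.33 (MT-CO3). The members were also more abundant, with a median of 106 FPKM over the 102, against 3.96 FPKM over all 20137 genes. Their median standard error was 0.137, against 0.175 over all tested genes. Shares of all genes are therefore not a like-for-like measure, and genes of similar level were not tested apart. In limma without the run 0 of the 94 passed, as did 0% of all tested genes, and 1 (UQCRFS1) had an unadjusted p under 0.05, against 6.37% of all tested genes. With the run as a term 1 member passed, UQCRFS1, which fell. Among all genes 3.44% passed in that fit, 1.53% higher and 1.9% lower. Scaling the libraries to an equal total without the mitochondrial genome turned the split of 186 higher and 231 lower into 308 higher and 237 lower. At an unadjusted p of 0.05 with the run, 7 members passed, against 22.1% of all genes.

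Where the nuclear members did differ, the sign often turned with the replicate number. In replicate 1, 54 of the 81 were higher in the knockdown (median 0.05), and in replicate 2, 23 were (median -0.09), beside medians of -0.01 and 0.03 over all tested genes. As many as 32 of the 81 (39.5%) were higher in replicate 1 and lower in replicate 2, against 13.6% of all tested genes, and 1 went the opposite way, against 19.3%. Higher in both numbers were 22, against 35.3% of all tested genes, and lower in both were 26, against 31.7%. Together these are 59.3%, against 67%. All these signs are of values not scaled between libraries. As a share of all FPKM, the nuclear sum differed by 0.004 in replicate 1 and -0.02 in replicate 2 (log2). Factors for an equal total were 1.01 in the knockdown and 0.978 in the control of replicate 1, and 0.975 and 1.03 in replicate 2. Median-of-ratios factors leaned the other way (1.03 and 1.04, then 0.991 and 0.958). Signs by replicate number after scaling were not tested. The 2 groups did not overlap in 22 of the 81, which is 27.2%, against 35.9% of all tested genes. Both knockdown libraries lay above both controls in 8, against 19.4% of all tested genes, and below them in 14, against 16.6%. Short mRNAs outside the family also had this turn of sign. Among genes that are no members, 23.8% of 1368 with a leading transcript under 1000 bases were higher in replicate 1 and lower in replicate 2, against 11.9% of 9969 longer ones. Among nuclear members the shares were 45.7% of 46 short and 25.8% of 31 longer ones. Transcript lengths are those of GENCODE 29, known for 77 of the 81 (median 795 bases, against 2659 over all tested genes), and the part of length in the pattern was not tested.

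**Figure D2:**
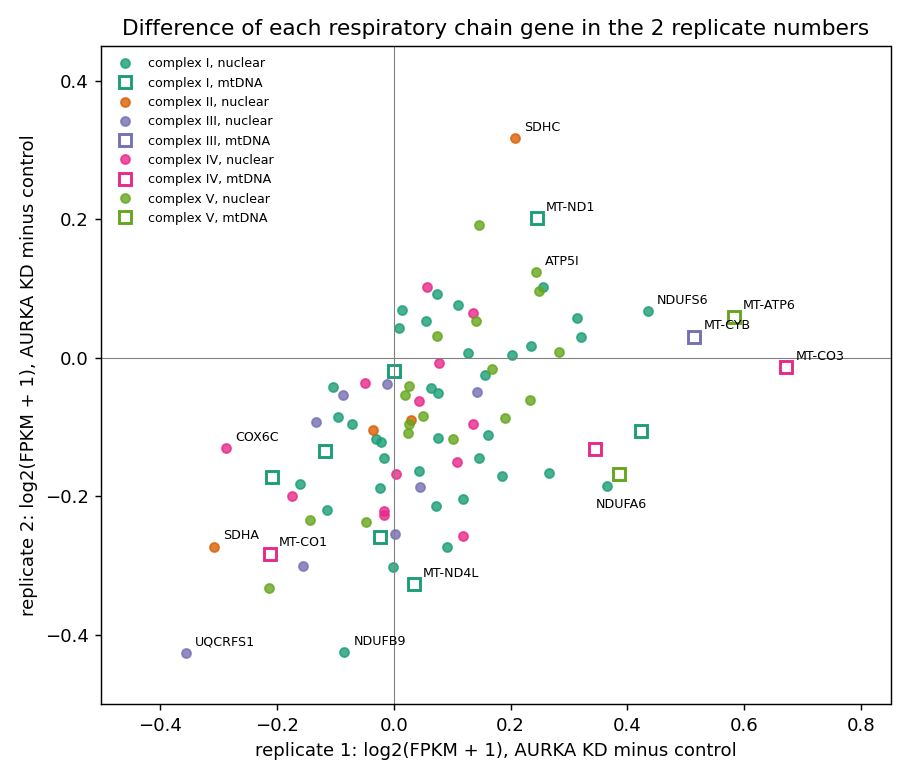
Difference between AURKA knockdown and control on the log2(FPKM + 1) scale in replicate 1 (x axis) and replicate 2 (y axis) for 92 of the 94 tested members, without NDUFC2-KCTD14 and NDUFA4L2, which lie outside the axes. Filled circles are nuclear-encoded and open squares mtDNA-encoded genes, coloured by complex. UQCRFS1 lies at -0.36 and -0.43 and SDHA at -0.31 and -0.27, SDHC is highest on the y axis, and the lower right holds the 38 members that were higher in replicate 1 and lower in replicate 2.

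Complex I had 37 nuclear members by name, 7 of them core subunits that carry the electron path, 29 accessory subunits and a readthrough gene. Of the 37, 12 were higher in both replicate numbers and 11 lower in both, and their median difference was 0.01. In these, 0 passed in limma without or with the run as a term (smallest adjusted p 0.822 and 0.203). Of the core subunits, NDUFS1, the largest of the iron-sulfur proteins, had 84.6 and 84.2 FPKM in the knockdown, against 84.03 and 81.6 FPKM in the controls. NDUFV1, which binds the flavin that takes up electrons from NADH, had 75.2 and 72.8 FPKM in KD libraries against 74.4 and 69.3 FPKM in control libraries. Both differences were below 0.1 on the log2 scale in each replicate number.

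Of the accessory subunits NDUFB9 was furthest below 0 and NDUFS6 furthest above. NDUFB9, in the membrane arm, had 85.6 and 75.8 FPKM in the knockdown, against 90.8 and 102 FPKM in the controls, with both knockdown libraries below both controls and differences of -0.08 in replicate 1 and -0.42 in replicate 2 (limma, adjusted p 0.822, or 0.203 with the run as a term). NDUFS6, a zinc-binding subunit of the NADH module, had 55.8 and 76.2 FPKM in the knockdown, against 40.99 and 72.7 FPKM in the controls. The 2 runs differed far more than the groups did, and the difference was 0.44 in replicate 1 and 0.07 in replicate 2 (adjusted p 0.935, or 0.225 with the run as a term). NDUFB1, the most abundant nuclear member of the complex, had 401 and 321 FPKM in KD libraries against 334 and 359.9 FPKM in control libraries and was highest in knockdown replicate 1 and lowest in knockdown replicate 2. NDUFA12 (133 and 130.3 FPKM in KD libraries against 111 and 121 FPKM in control libraries) and NDUFB2 (107 and 106 FPKM in KD libraries against 85.8 and 104 FPKM in control libraries) were above both controls in both knockdown libraries without passing (adjusted p with the run 0.254 and 0.324). These 2 genes were named after their values were seen.

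Complex II, which has no mtDNA-encoded subunit, held members that went opposite ways. SDHA, the flavoprotein that oxidises succinate (ENSG00000073578, chromosome 5, 218356 to 256815, GRCh37), had 69.1 and 65.3 FPKM in the knockdown, against 85.7 and 79.1 FPKM in the controls. Both knockdown libraries lay below both controls, a mean 1.23-fold lower, with differences of -0.31 in replicate 1 and -0.27 in replicate 2 (log2 difference -0.29, standard error 0.12; limma, adjusted p 0.779, or 0.0944 with the run as a term). It did not pass. SDHC, a membrane anchor that binds ubiquinone (ENSG00000143252, chromosome 1, 161284047 to 161332984), went the other way within each number, with 50.2 and 43.2 FPKM in the knockdown, against 43.3 and 34.5 FPKM in the controls. The groups overlap by a narrow margin, since knockdown replicate 2 (43.2 FPKM) lay just below control replicate 1 (43.3 FPKM), and the difference was 0.21 in replicate 1 and 0.32 in replicate 2 (adjusted p 0.854, or 0.139 with the run as a term). The iron-sulfur subunit SDHB had 91.5 and 87.5 FPKM in KD libraries against 89.6 and 93.1 FPKM in control libraries. The other anchor, SDHD, had 78.1 and 75.3 FPKM in KD libraries against 80.1 and 81.04 FPKM in control libraries. Their differences were 0.03 in replicate 1 and -0.09 in replicate 2 for SDHB and -0.04 in replicate 1 and -0.10 in replicate 2 for SDHD. The ratio of SDHA to SDHC within a library was 1.38 and 1.51 in the knockdown, against 1.98 and 2.29 in the controls. That of SDHA to SDHB was 0.755 and 0.746 in the knockdown, against 0.957 and 0.849 in the controls. These pairs were set against each other for how SDHA and SDHC differed, so the ratios are given without a test. SDHA has close pseudogene copies in the genome, which were not analysed here, so how its fragments were assigned is uncertain.

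In complex III 1 nuclear member, UQCRFS1, passed in the fit with the run and none of the other 7 did in either fit. Of the 8, 5 were lower in both replicate numbers, against 31.7% of all tested genes, and 0 higher in both, against 35.3%. Both knockdown libraries lay below both controls in 3, against 16.6% of all tested genes, and the median difference was -0.09 (-0.05 in replicate 1 and -0.14 in replicate 2). CYC1, the cytochrome c1 of this complex, lies outside the name rule and is not among the 8. It had 122 and 105 FPKM in the knockdown, against 118 and 111 FPKM in the controls (0.05 in replicate 1 and -0.08 in replicate 2). UQCRFS1, the Rieske iron-sulfur protein that passes electrons from ubiquinol towards cytochrome c1 (ENSG00000169021, chromosome 19, 29698173 to 29704448, GRCh37), was the member with the largest difference. It had 80.4 and 75.9 FPKM in the knockdown, against 103 and 102 FPKM in the controls, or 78.1 ± 3.17 FPKM in the knockdown and 102.7 ± 0.613 FPKM in the controls (SD, n = 2 each). The knockdown mean was 1.31-fold lower, the groups lay well apart, and the replicates of each group lay close together. The difference was -0.36 in replicate 1 and -0.43 in replicate 2 (log2 difference -0.39, standard error 0.11). UQCRFS1 fell with the run as a term (limma, adjusted p 0.0487, and 0.0314 to 0.0362 under 4 other library scalings) and did not pass without it (adjusted p 0.575, and 0.407 to 0.9999 under 12 other settings without it). At the estimated depths UQCRFS1 rests on roughly 5900 to 8600 fragments per library. It is listed with a single transcript and shares its locus with no other gene. Similar sequences elsewhere in the genome, such as pseudogene copies, were not analysed here, so how its fragments were assigned was not tested.

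UQCRB, which helps to shape the ubiquinone site, had 124 and 125 FPKM in the knockdown, against 138 and 154 FPKM in the controls, below both controls in both libraries without passing (adjusted p 0.822, or 0.166 with the run as a term). UQCRC2, a core protein on the matrix side, was also below them (78.8 and 82.03 FPKM in KD libraries against 83.7 and 85.2 FPKM in control libraries), with differences of -0.09 in replicate 1 and -0.05 in replicate 2. UQCRC1, its partner, had 76.3 and 65.4 FPKM in KD libraries against 83.8 and 69.8 FPKM in control libraries with overlapping groups. UQCR10 was the member of least difference among those with 1 sign in both numbers (83.1 and 84.002 FPKM in KD libraries against 83.8 and 86.2 FPKM in control libraries). UQCRH, the hinge protein and the most abundant nuclear member of the complex, had 413 and 377 FPKM in KD libraries against 400.1 and 429 FPKM in control libraries. UQCRH has a near-identical retrocopy, UQCRHL, so its value is uncertain. MT-CYB, the mtDNA-encoded subunit of the complex, lay on the other side, above both controls in both knockdown libraries.

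**Figure D3:**
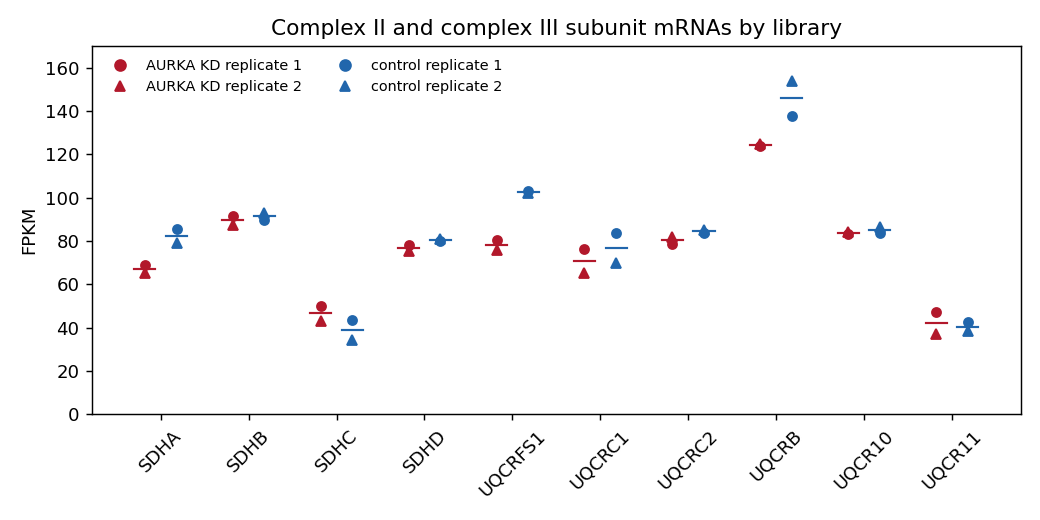
FPKM of 10 nuclear-encoded subunits of complexes II and III, AURKA knockdown (red) left of control (blue), circles for replicate 1, triangles for replicate 2 and bars at the group means. For SDHA, UQCRFS1 and UQCRB both knockdown libraries lie below both controls, while SDHC is higher within each replicate number.

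Complex IV had 20 nuclear members, counting NDUFA4, which is named for complex I but is a subunit of complex IV, and its paralog NDUFA4L2. Of the 14 tested, 3 were higher in both replicate numbers and 5 lower in both (median -0.03), and 0 passed in either fit (smallest adjusted p 0.841 and 0.216 with the run). COX6C, a small membrane subunit, was furthest below 0 among the nuclear members of 1 sign in both numbers, with 305 and 312 FPKM in the knockdown, against 372 and 341 FPKM in the controls (-0.29 in replicate 1 and -0.13 in replicate 2; adjusted p 0.841, or 0.216 with the run as a term). COX6A1 was the most abundant nuclear member, at 578 and 538 FPKM in KD libraries against 577 and 605 FPKM in control libraries. COX7A2L, a factor that joins complexes III and IV rather than a core subunit, had 76.7 and 84.3 FPKM in KD libraries against 73.8 and 78.4 FPKM in control libraries.

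The subunits of complex IV that come in tissue-specific forms were set beside each other. The ubiquitous forms were expressed and the muscle, lung or testis forms were at or near 0 in 5 pairs. COX4I1 had 435 and 381 FPKM in KD libraries against 422 and 398 FPKM in control libraries while COX4I2 was listed at 0, as were COX6A2 and COX8C beside COX6A1 and COX8A. COX6B2 reached at most 0.728 FPKM beside COX6B1 at 367 and 334 FPKM in KD libraries against 333 and 357 FPKM in control libraries. COX7A1 reached 0.742 FPKM beside COX7A2 at 419 and 369 FPKM in KD libraries against 397 and 371 FPKM in control libraries. The exception was COX7B2, known as a testis form, with 111 and 100.2 FPKM in the knockdown, against 115 and 103 FPKM in the controls. The ubiquitous COX7B had 37.6 and 33.5 FPKM in KD libraries against 34.6 and 40.3 FPKM in control libraries. The ratio of COX7B2 to COX7B was 2.94 and 2.99 in the knockdown, against 3.31 and 2.55 in the controls. The leading transcript of COX7B2 is 542 bases long and the single one of COX7B 2471 bases, so by fragments they are closer. At the estimated depths these were roughly 1100 to 1500 fragments for COX7B2 and 1500 to 2400 for COX7B. NDUFA4 had 48.7 and 41.2 FPKM in KD libraries against 45.2 and 45.9 FPKM in control libraries. NDUFA4L2, known as a hypoxia-induced paralog, was at 1.05 FPKM or below, with differences of 0.05 in replicate 1 and 0.53 in replicate 2, the most positive pooled difference among the nuclear members of the complex.

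Complex V had 20 nuclear members, 15 of them subunits. Of the 18 tested, 6 were higher in both replicate numbers and 3 lower in both, 9 were higher in replicate 1 and lower in replicate 2, and 0 passed in either fit (median 0.02; smallest adjusted p 0.854 and 0.229 with the run). Genes placed here by name that are not subunits are among them. ATP5S and the assembly factor ATP5SL (now DMAC2) were higher in both numbers, and the readthrough gene ATP5J2-PTCD1 was lower in both. In the catalytic head, ATP5B, the subunit that holds the catalytic sites, had 559.9 and 515 FPKM in the knockdown, against 552 and 534 FPKM in the controls. ATP5A1, its partner in the head, had 260.4 and 276 FPKM in KD libraries against 247 and 269.7 FPKM in control libraries. The head subunits ran from -0.04 to 0.10 on the log2 scale. ATP5G1, ATP5G2 and ATP5G3 encode the same mature subunit c of the proton-driven ring from different genes. ATP5G1 had 111 and 99.9 FPKM in KD libraries against 107 and 106 FPKM in control libraries. ATP5G2 had 321 and 265 FPKM in KD libraries against 286 and 268 FPKM in control libraries. ATP5G3 had 188 and 174 FPKM in KD libraries against 185 and 179 FPKM in control libraries. ATP5G2 was the highest and ATP5G1 the lowest in every library. All 3 were higher in replicate 1 and lower in replicate 2, by at most 0.17 on the log2 scale in either. ATP5I, a membrane subunit that helps ATP synthases pair, was the most positive of the nuclear members of 1 sign in both numbers (329.7 and 348 FPKM in the knockdown, against 278 and 319 FPKM in the controls; 0.24 in replicate 1 and 0.12 in replicate 2; adjusted p 0.862, or 0.25 with the run as a term). The most negative was ATP5J2-PTCD1, a readthrough gene of low level at 2.82 and 2.62 FPKM in KD libraries against 3.43 and 3.56 FPKM in control libraries, which lies in a locus of 7 genes in the tables and is uncertain.

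The balance of the 2 genomes within each complex was then read as a ratio of summed FPKM, which does not depend on library scaling. In complex I the ratio was 9.47 and 9.57 in the knockdown, against 9.62 and 9.78 in the controls. The knockdown libraries were the 2 lowest, but the whole range was narrow and the log2 difference was only -0.02 in replicate 1 and -0.03 in replicate 2. In complex III MT-CYB is set against 8 nuclear subunits, which do not include CYC1. The ratio was 2.60 and 2.84 in the knockdown, against 1.78 and 2.41 in the controls, with no overlap and a difference of 0.55 in replicate 1 and 0.24 in replicate 2. The numerator was higher and the denominator lower in the knockdown. In complex IV it was 7.94 and 7.75 in the knockdown, against 6.22 and 7.66 in the controls, where control replicate 1 stood apart and the other 3 libraries lay close together (0.35 in replicate 1 and 0.02 in replicate 2). In complex V it was 17.002 and 14.3 in the knockdown, against 13.996 and 15.2 in the controls, with overlapping groups (0.28 in replicate 1 and -0.09 in replicate 2). Most of that numerator was MT-ATP8, whose level is uncertain. It gave 58894 of 68211 and 46287 of 54481 FPKM in the knockdown, and 45079 of 51302 and 51984 of 59848 FPKM in the controls. For MT-ATP6, the other mtDNA-encoded subunit, both knockdown libraries lay above both controls. The complex V ratio without MT-ATP8 was not tested.

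In complexes I, III and IV the groups did not overlap, each at an exact permutation p of 0.333, the smallest 4 libraries allow, and in complex V p was 0.667 (two-sided, 4 ratios, 0.444 and 0.667 after Benjamini-Hochberg adjustment). Over the 4 complexes together the ratio was 10.6 and 9.89 in the knockdown, against 9.01 and 10.05 in the controls (10.3 ± 0.518 in the knockdown and 9.53 ± 0.732 in the controls, SD, n = 2 each; exact permutation p = 0.667), 0.24 in replicate 1 and -0.02 in replicate 2 on the log2 scale. Without control replicate 1 this pooled difference was 0.03, against 0.11 over all 4 libraries.

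**Figure D4:**
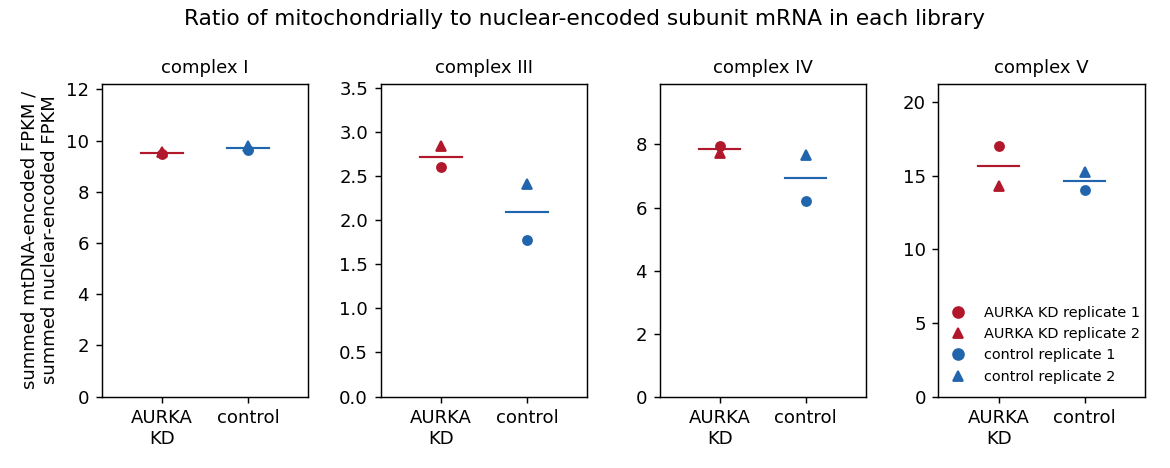
Summed FPKM of mtDNA-encoded subunits over summed FPKM of nuclear-encoded members in each library for complexes I, III, IV and V, AURKA knockdown (red) left of control (blue), circles for replicate 1, triangles for replicate 2 and bars at the group means; each panel has its own axis from 0. Complex III lies at 2.6 and 2.84 in the knockdown against 1.78 and 2.41 in the controls, and complex I between 9.47 and 9.78 in all libraries.

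Other genes that serve the respiratory chain were taken from lists drawn up with earlier results of these data known. Without the run 0 members of any list passed in limma, with 12 at an unadjusted p under 0.05, against 6.37% of all tested genes. With the run as a term 5 genes fell and 0 rose, against 1.9% and 1.53% of all tested genes. The numbers tested are given with each list below. Among the mitochondrial ribosomal proteins, which translate the 13 mtDNA-encoded mRNAs, 0 rose and 2 fell of 77 tested (median -0.02). MRPL37 had 28.3 and 28.04 FPKM in the knockdown, against 59.2 and 66.04 FPKM in the controls, a mean 2.22-fold lower (log2 difference -1.12, standard error 0.12; limma, adjusted p 0.261, or 0.0029 with the run as a term), the largest difference of any gene in these lists. MRPS6 had 37.4 and 34.6 FPKM in the knockdown, against 49.6 and 50.3 FPKM in the controls (adjusted p 0.537, or 0.0402 with the run as a term). In both genes the replicates of the knockdown lay close together and well below the controls. Among assembly factors of the complexes 0 rose and 1 fell of 47 tested (median -0.03), namely PET117, a complex IV factor of low level, with 7.12 and 5.68 FPKM in KD libraries against 11.5 and 11.03 FPKM in control libraries (adjusted p 0.534, or 0.0318 with the run as a term).

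Among citric acid cycle enzymes 0 rose and 1 fell of 19 tested (median 0.06). SUCLA2, a subunit of succinyl-CoA synthetase, which makes the succinate that complex II oxidises, had 10.7 and 13.9 FPKM in the knockdown, against 17.6 and 25.02 FPKM in the controls (adjusted p 0.62, or 0.0191 with the run as a term). Of the mitochondrial antioxidant, carrier and uncoupling genes 0 rose and 1 fell of 11 tested (median 0.01). This was SLC25A6, an ADP/ATP carrier, with 104 and 94.4 FPKM in the knockdown, against 132 and 129 FPKM in the controls (adjusted p 0.608, or 0.04997 with the run as a term), at the edge of the threshold. Its paralogs are close in sequence, so its value is uncertain. The share of called genes in all tested genes was 3.44%.

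The lists of factors that act on mtDNA and its RNA, and the other 3 lists, had 0 calls. Of 18 genes of mtDNA transcription and replication (median 0.002), the smallest p was that of LIG3, a DNA ligase (16.5 and 15.1 FPKM in KD libraries against 20.3 and 20.8 FPKM in control libraries; adjusted p 0.727, or 0.102 with the run as a term). TFAM, which packages mtDNA and starts its transcription, had 42.3 and 68.6 FPKM in KD libraries against 41.8 and 70.7 FPKM in control libraries, so that the runs lay further apart than the groups. POLRMT, the mitochondrial RNA polymerase, had 21.2 and 16.7 FPKM in KD libraries against 21.7 and 15.1 FPKM in control libraries. Of 24 genes of mitochondrial RNA processing and stability (median -0.08) the smallest p was that of PDE12, a nuclease that trims poly(A) tails (12.1 and 13.7 FPKM in KD libraries against 18.02 and 17.3 FPKM in control libraries; adjusted p 0.668, or 0.0819 with the run as a term). Of 15 nuclear regulators (median -0.05) it was that of KEAP1, the sensor that restrains NFE2L2 (25.05 and 30.4 FPKM in KD libraries against 19.2 and 20.9 FPKM in control libraries; adjusted p 0.674, or 0.058 with the run as a term). NRF1 (9.21 and 10.5 FPKM in KD libraries against 11.04 and 10.9 FPKM in control libraries) and PPARGC1A (2.89 and 3.39 FPKM in KD libraries against 3.35 and 3.58 FPKM in control libraries), regulators of nuclear respiratory genes, did not pass. Of 29 import and inner membrane genes (median -0.01) the smallest p was that of TIMM50 (44.7 and 48.2 FPKM in KD libraries against 52.3 and 56.9 FPKM in control libraries; adjusted p 0.826, or 0.164 with the run as a term). Of 7 subunits and carriers outside the name rule (median -0.06) it was that of ATPIF1, the inhibitor of ATP synthase (189.7 and 159 FPKM in KD libraries against 158 and 146 FPKM in control libraries; adjusted p 0.872, or 0.228 with the run as a term).

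Promoter sequence, which the name rule did not use, was searched for 3 words, each of which stood in a minority of the nuclear subunits' windows. RefSeq promoter windows (250 before to 50 after the start, GRCh38.p14) matched 65 of the 81 nuclear members that are subunits or their paralogs. The word GCGCA, any base, GCGC, read by NRF1 (nuclear respiratory factor 1), stood on either strand in 16 of them (24.6%), against 6.29% of all 27305 windows. CCGGAAG, an ETS family word read by GABPA, stood in 19 (29.2%, against 10.7%), and AAGATGGC, a YY1 word, in 11 (16.9%, against 3.03%). The 27305 windows were not limited to expressed genes, and a comparison with expressed genes alone was not tested. The NRF1 words of SDHA and UQCRFS1, the 2 members furthest below 0, and of SDHD are shown in capitals. Each has 10 bases on either side and is printed 5′ to 3′ on the gene's strand. In UQCRFS1 the word lies on the opposite strand, so the capitals are its reverse complement.
UQCRFS1, 31 bases before the start, chr19:29213163-29213192, minus strand: gcgcctcctcGCGCCTGCGCcgtggttgga
SDHA, 166 bases before the start, chr5:218144-218173, plus strand: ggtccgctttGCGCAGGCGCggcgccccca
SDHA, 117 bases before the start, chr5:218193-218222, plus strand: gtggcatggtGCGCAGGCGCgatgtccccc
SDHA, 68 bases before the start, chr5:218242-218271, plus strand: ccggcgtggtGCGCAGGCGCggtatccccc
SDHD, 110 bases before the start, chr11:112086753-112086782, plus strand: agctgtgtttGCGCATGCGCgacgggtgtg
SDHA holds the word at 3 places, and SDHD, whose level differed little, holds it as well. A word in a window is a description of the sequence, and binding was not measured.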

How the data were processed

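RNA-seq libraries of the 4 MDA-MB-231 samples were deposited as tables of transcripts, 1 per library. Per the labels' protocols, total RNA was extracted with a column kit and made into libraries with a NEBNext Ultra kit, and, per the submitters' processing notes, bcl2fastq 2.19, HTSeq 0.8.0 and hg38 were used. The deposited values were taken as FPKM as the files' value column and its range allow. The program that made them is not stated in any source at hand. Positions in the tables follow GRCh37 with starts counted from 0, and are printed counted from 1. FPKM are not counts, so depth was only estimated.

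Transcript values were summed by gene identifier. Groups come from the genotype label. Genes that reached 1 FPKM in 2 or more libraries (12136 of 20137) were fitted with limma 3.58.1 in R 4.3.3 on log2(FPKM + 1) with a trend, without a covariate, and p-values were adjusted by the Benjamini-Hochberg method over all genes tested, with a threshold of 0.05. A difference is knockdown minus control on that scale, which understates the change of low genes. A second fit took the replicate number as a term, called the run here. Sums and ratios were compared by exact permutation. The fits were tested on simulated data with changes far larger than those of the members. That test does not tell how often differences as small as theirs would pass. Alternatives were other pseudocounts, filters and library scalings, each library left out, and other sums.

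The genes and lists were chosen with earlier results of these data known. Named genes were all mtDNA-encoded ones, those past the threshold, in each complex the extremes of 1 sign in both replicate numbers and the most abundant, paralog pairs, the SDH genes and, from each list, the called genes or otherwise the gene of smallest p without the run. Other genes were named for their role after their values were seen. Ribosomal and transfer RNA of mtDNA and nuclear copies of mtDNA genes were not analysed here, and values of 1 subunit gene and 1 marker are not reported here. Sequences are from GENCODE 29 transcripts and RefSeq (GRCh38.p14).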

Additional observations from a re-analysis of the deposited data

How the results depend on the processing

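Without the run, the count of respiratory chain genes past the threshold was 0 in every setting tried, and with the replicate block it was 1, UQCRFS1, also with the block under each of 4 other library scalings (1 each, chosen after seeing the data). Same-numbered libraries deviated together (r = 0.645 over 12136 genes), but 2 pairs do not show that the numbers pair the samples. Over all genes the block gave 417 calls (186 higher and 231 lower), and 491 (240 and 251) to 896 (355 and 541) under the other scalings, 545 (308 and 237) without the mitochondrial genome. No fit with the block was made with a library left out. Without 1 library at a time, the summed mtDNA-encoded mRNA ran from -0.0216 to 0.191 around 0.0846, turning to -0.0216 without AURKA KD replicate 1 and -0.0215 without control replicate 1. The nuclear-encoded sum ran from -0.0780 to 0.0309 around -0.0236, turning to 0.0309 without AURKA KD replicate 2, to 0.00289 without control replicate 2, and to 0.0122 with libraries scaled to an equal total without the mitochondrial genome. The pooled log2 difference in the ratio of both sums stayed above 0, at 0.0287 to 0.186. Within the replicate numbers that difference was 0.237 in replicate 1 and -0.0228 in replicate 2. The medians of the mtDNA-encoded and nuclear-encoded genes ran from -0.0294 to 0.212 and from -0.0616 to 0.0283. The cause of these turns was not tested. With 2 libraries a group, exact permutation allows no p below 0.333.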

Other observations

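The 3 members on chromosome 8, NDUFB9, UQCRB and COX6C, were singled out after their values were seen. In each, both knockdown libraries lay below both controls, with a median log2 difference of -0.23. Over all 425 tested genes of that chromosome the median was 0.04, and both knockdown libraries lay below both controls in 14.8%. None of the 3 passed in limma without or with the run as a term, with adjusted p of 0.203 (NDUFB9), 0.166 (UQCRB) and 0.216 (COX6C) in the fit with the run.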
